A study of Mus musculus with 4 samples.

Results

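C1q macrophages outside the cell cycle were a set of 1033 cells among the 28429 CD45+ cells that the authors kept from 4 mouse mammary tumors. They were chosen by their UMI counts, a UMI being 1 counted mRNA molecule. A member had C1qa, C1qb and C1qc together at 20 or more per 10000 UMIs of the cell, S100a8 and S100a9 together under 300 per 10000, at most 1 UMI of Cd3d, Cd3e and Cd3g together, and not both Mki67 and Top2a at 1 or more. C1q levels, granulocyte genes, T-cell receptor complex genes and proliferation genes therefore chose the members. The fits below ran across all genes, these included, and what they give for the genes of the rule is a description only.

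The tumors grew from EO771 cells, a C57BL/6-derived mouse mammary tumor line, placed orthotopically in the fourth mammary gland of female mice and collected at 1.5 cm3. The 2 control mice carried floxed Csf1r alleles alone (Csf1rfl/fl). The 2 others carried the same floxed alleles and Lyve1Cre (Lyve1CreCsf1rfl/fl), so both groups shared the floxed Csf1r gene and the C57BL/6 background. The age of the mice is not given in the sources used here. Leukocytes were sorted for CD45, marked with hashtag antibodies and processed in 2 Chromium runs, each run holding 1 tumor of either genotype. Lyve1 is also active in lymphatic endothelium, so deletion in these mice need not be limited to macrophages, and 3′ UMI counts of Csf1r do not tell a deleted allele from an intact one. With 2 tumors per genotype, an exact two-sided permutation test over tumors cannot give a p below 0.333.

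The tumor of a cell was read from the hashtag with more UMIs. The barcode sequences of both hashtags are shown because every per-tumor value below rests on them, and the runs used them the opposite way round. A0301 marked the Csf1rfl/fl tumor in run 1 and the Lyve1CreCsf1rfl/fl tumor in run 2, and A0302 marked the other tumor of each run.
Hashtag A0301: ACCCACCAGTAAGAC
Hashtag A0302: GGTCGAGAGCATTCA
Of the members, 11 and 3 in the Csf1rfl/fl and Lyve1CreCsf1rfl/fl tumors of run 1, and none in run 2, had a higher hashtag under 3 times the other. Among kept cells 11 had equal hashtags and entered no tumor, and 60 cell barcodes occurred in both runs.

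C1q is the recognition unit of the classical complement pathway, assembled from the chains encoded by C1qa, C1qb and C1qc. In tissues it is made mainly by macrophages rather than by the liver that makes most other complement proteins, and it also binds dying cells and helps phagocytes clear them. In tumors, macrophages high in C1q genes often also express Apoe, a lipid carrier, and antigen-presentation genes, and differ from monocytes that have recently entered the tissue and still carry Ly6c2 and Ccr2.

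Values for the 4 tumors are given in 1 order throughout, with the Csf1rfl/fl tumor of run 1 and that of run 2 before the Lyve1CreCsf1rfl/fl tumor of run 1 and that of run 2. C1q macrophages numbered 511, 285, 156 and 81 cells. As a share of all kept cells these were 5.93%, 3.66%, 2.15% and 1.70%, with exact 95% binomial intervals of 5.44 to 6.45%, 3.25 to 4.10%, 1.83 to 2.51% and 1.35 to 2.11% that cover counting error only. Both Lyve1CreCsf1rfl/fl tumors lay below both Csf1rfl/fl tumors. The means were 4.80% ± 1.61 in Csf1rfl/fl and 1.93% ± 0.32 in Lyve1CreCsf1rfl/fl (SD, n = 2 each), a log2 ratio of -1.32, with -1.46 in run 1 and -1.11 in run 2. The exact two-sided permutation test gave p = 0.333, the smallest that 2 against 2 allows.

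A lower share was also seen for phagocytes chosen by a Csf1r UMI. Other Csf1r-positive phagocytes, defined by at least 1 Csf1r UMI and the same limits but C1q under 20 per 10000, were 15.001%, 16.6%, 9.35% and 10.7% of kept cells, a log2 ratio of -0.66. Among these, cells with Ly6c2 at 10 or more per 10000 were 9.97%, 10.3%, 5.41% and 6.64%. Counted against phagocytes alone, that is C1q macrophages and other Csf1r-positive phagocytes together, C1q macrophages were 28.3%, 18.03%, 18.7% and 13.7%. On this scale the genotypes overlapped, since the Csf1rfl/fl tumor of run 2 lay below the Lyve1CreCsf1rfl/fl tumor of run 1, and the log2 ratio of the means was -0.52 (exact permutation p = 0.667). The other phagocytes were chosen on Csf1r, the floxed gene, whereas members needed no Csf1r UMI. How far that choice sets their share, or the share among phagocytes, was not tested. The authors' set of kept cells leaves out lymphocyte clusters that came almost only from the Lyve1CreCsf1rfl/fl tumor of run 2, which makes shares of all kept cells higher in that tumor, and a share per cell sorted does not give the number of macrophages in a tumor.

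**Figure D1:**
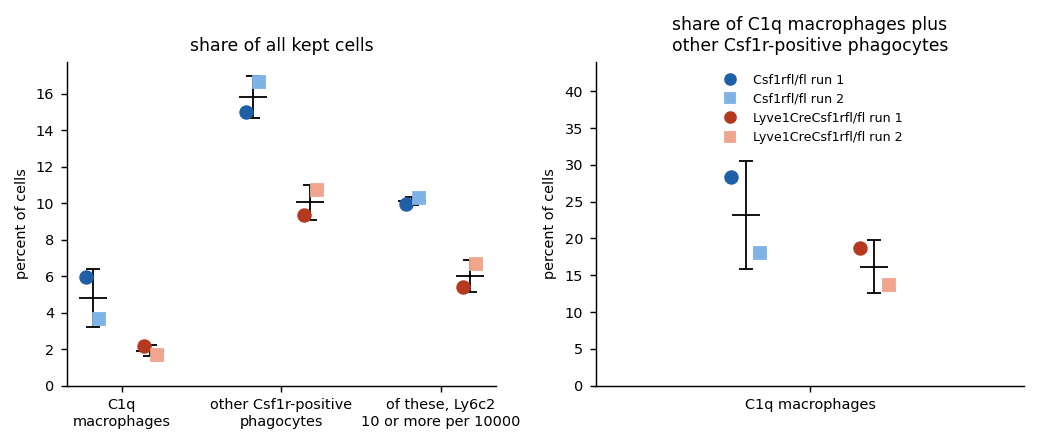
Share of cells (percent) in each tumor, of all kept cells on the left and of phagocytes on the right. Points are tumors (circles run 1, squares run 2, blue Csf1rfl/fl, red Lyve1CreCsf1rfl/fl), and bars are the mean and SD of 2 tumors. The genotypes do not overlap in the left panel, where C1q macrophages are 5.93% and 3.66% against 2.15% and 1.70%, and do overlap in the right panel, at 28.3% and 18.03% against 18.7% and 13.7%.

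Members were sequenced to a median of 5406, 5869, 4536.5 and 5200 UMIs per cell, and the sums over members were 3378728, 1932468, 765846 and 482938 UMIs. Scrublet, which scores cells by their likeness to simulated doublets, marked 20.7%, 13.3%, 20.5% and 8.64% of members, against 21.3% and 12.8% of all kept cells in runs 1 and 2. Neutrophil markers summed to 36.2, 19.3, 23.8 and 6.03 per 10000 UMIs in members and to 27.2, 9.55, 11.4 and 7.24 in T cells of the same tumors, and so moved with run and tumor in both. Most of the member sums came from S100a8, at 13.6, 5.95, 6.88 and 1.78, and S100a9, at 17.8, 10.6, 11.8 and 2.80. Both genes were limited in choosing members and T cells, so the sums are a description. T-cell markers, which include Cd3d, Cd3e and Cd3g that the rule limited, summed to between 0.313 and 0.787 per 10000 in members. Low T-cell sums were therefore partly set by the rule. B-cell markers summed to between 0.326 and 1.49, dendritic-cell markers to between 0.580 and 1.68, and tumor or stromal markers to between 0.340 and 0.569, with Krt18 at 0. NK-cell markers summed to 4.79, 1.39, 3.34 and 0.828 per 10000 in members, higher in run 1 than in run 2, and to 8.53, 5.04, 6.60 and 8.14 in T cells. All 6 neutrophil, 6 T-cell, 5 NK-cell, 5 B-cell and 7 dendritic-cell markers had at least 1 UMI among members. How far free RNA, doublets or a mixed sort contributed to any result was not tested.

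The chains of C1q chose the cells, and their levels are a description. C1qa was at 28.6, 22.7, 23.6 and 22.6 UMIs per 10000 UMIs of members, C1qb at 27.1, 20.8, 23.9 and 22.7, and C1qc at 19.2, 14.1, 13.8 and 14.4. The Csf1rfl/fl tumor of run 1 was the highest for each chain, and the genotypes overlapped for all 3. The ratio of C1qa to C1qb UMIs was 1.05, 1.095, 0.990 and 0.995, and that of C1qc to C1qb was 0.706, 0.679, 0.580 and 0.633. In other Csf1r-positive phagocytes C1qa stood at only 0.438 to 0.547 of C1qb. In T cells, which do not make C1q, C1qa was at 3.48, 1.16, 0.261 and 0.600 per 10000 and had a ratio to C1qb of 1.01 to 1.04. C1q UMIs in T cells thus differed between tumors, and the ratio in T cells lay near that of the members rather than that of the other phagocytes. Members held 45.1%, 59.4%, 61.3% and 54.4% of all C1qa UMIs of their tumor.

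The 3 genes lie side by side on the minus strand of chromosome 4 (GRCm38), within 18.7 kb between 136880129 and 136898803, in the order C1qb, C1qc and C1qa. The 250 bases before the RefSeq start of C1qb (chr4:136886201-136886450, minus strand, GRCm38.p6) are shown because C1q transcripts defined the set. The windows of C1qa and C1qc are not used here. Both strands were searched for GAGGAAG, which fits the site of the myeloid factor PU.1, and for TGCTGA, the core of sites bound by the factor Maf. Capitals mark the only match, TGCTGA at 131 bases before the start.
C1qb upstream: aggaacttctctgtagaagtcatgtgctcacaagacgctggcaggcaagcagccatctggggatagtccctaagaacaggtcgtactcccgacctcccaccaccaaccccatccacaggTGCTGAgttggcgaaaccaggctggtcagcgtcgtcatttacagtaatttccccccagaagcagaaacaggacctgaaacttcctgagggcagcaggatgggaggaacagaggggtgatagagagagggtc
Of 32817 RefSeq upstream windows of the same length, 16.1% held TGCTGA and 10.6% held GAGGAAG on either strand. Transcripts of such factors were counted in the members. Maf was at 6.17, 8.49, 5.84 and 8.03 per 10000, and Spi1, which encodes PU.1, at 6.50, 5.62, 5.82 and 6.34 per 10000, and the genotypes overlapped for each.

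The threshold of 20 per 10000 cut through a continuous range of C1q levels. The lowest member was at 20.02 and the highest cell outside the set at 19.98 per 10000, and 122 cells lay between 15 and 20 against 112 between 20 and 25. No clustering was run.

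The label was then checked against macrophage markers the rule did not use. Ms4a7, a membrane protein of tissue macrophages, was at 12.6, 10.1, 7.16 and 7.99 per 10000 in members against 1.56, 1.12, 0.830 and 0.771 in other Csf1r-positive phagocytes. Apoe was at 7.62, 6.54, 3.996 and 6.67 against 1.27, 0.802, 1.29 and 1.09. Adgre1, which encodes the macrophage surface protein F4/80, was at 1.48, 2.11, 1.20 and 2.65 against 0.513, 0.624, 0.377 and 0.606. Each of these markers was higher in members in every tumor. Csf1r itself, the receptor that the floxed allele removes, was at 1.70, 2.23, 1.40 and 1.51 per 10000 in members, with both Lyve1CreCsf1rfl/fl tumors lowest but the difference not past the test (edgeR log2 fold change -0.42, SE 0.23, adjusted p = 0.9999). Its level in other Csf1r-positive phagocytes was part of how those were chosen and is not compared.

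Among 12047 genes with at least 20 UMIs over both sets, 72 genes (0.598%) were at least 2-fold higher in members than in other Csf1r-positive phagocytes in all 4 tumors, and 42 genes (0.349%) at least 2-fold lower, on rates with 0.05 per 10000 added. These counts describe sets that were chosen on C1q and carry no test. After the C1q chains and Ms4a7, the genes with the highest lowest-tumor ratio were Pf4, a platelet-factor chemokine also made by macrophages, at 5.55 to 16.5-fold, and Ccl7, a ligand of the monocyte receptor Ccr2, at 4.40 to 8.17-fold. Cd72, a C-type lectin with an inhibitory motif, was 3.52 to 4.87-fold higher, and Slamf9, a receptor of the SLAM family, 3.52 to 5.94-fold.

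Pltp, which transfers phospholipids between lipoproteins, was 3.24 to 5.89-fold higher in members, and C3ar1, the receptor for complement fragment C3a, 3.20 to 5.80-fold. Lgmn, a lysosomal cysteine protease, was 3.17 to 4.89-fold higher at levels of 12.1, 10.9, 11.1 and 13.3 per 10000. Mrc1, the mannose receptor of tissue macrophages, was 3.05 to 4.64-fold higher, and Fcgr4, an activating Fc receptor, 2.70 to 3.38-fold. Some of these genes were also high in a small set of the other phagocytes. That set held 18, 20, 16 and 3 cells, which had Ly6c2 under 10 and Arg1, Mmp12 and Gpnmb together at 20 or more per 10000. In these few cells Pf4 was at 15.6, 3.05, 1.96 and 3.10 per 10000, against 4.27, 5.08, 3.96 and 3.002 in members. Mrc1 was at 0.487, 1.27, 2.71 and 3.61, above members in both Lyve1CreCsf1rfl/fl tumors, and C3ar1 at 3.41, 3.43, 2.62 and 3.61.

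Several genes of circulating monocytes were at lower levels in members, and those named here were chosen after their values were seen. Chil3, a chitinase-like protein of monocytes, was at 0.530, 0.807, 0.823 and 1.14 per 10000 in members against 2.58, 4.303, 3.89 and 4.98 in other Csf1r-positive phagocytes. Fn1, which encodes fibronectin, was at 0.204, 0.409, 0.313 and 0.269 against 1.20, 2.37, 1.27 and 2.20. Plac8 was at 12.7 to 18.3 against 37.9 to 48.0, and Lyz2, the lysozyme of myeloid cells, at 20.4 to 25.8 against 41.2 to 59.9. Monocyte markers as a list summed to 14.6, 19.5, 19.3 and 17.8 in members and to 31.7, 39.8, 33.2 and 39.8 in the others, so members were lower without lacking them.

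**Figure D2:**
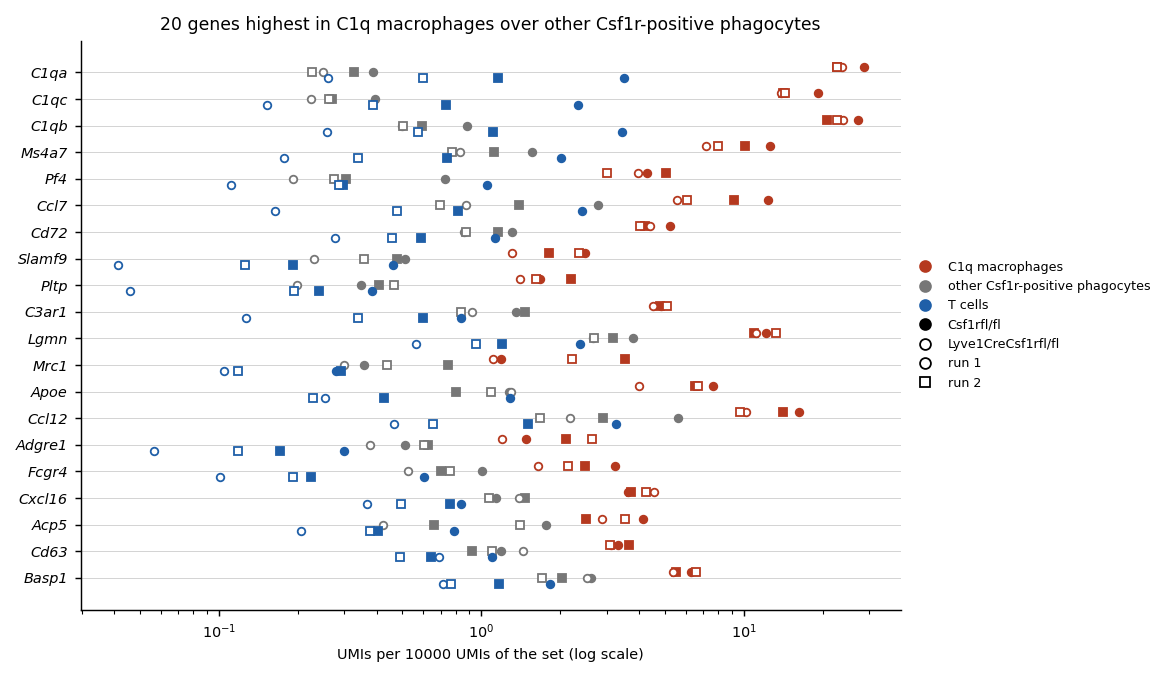
Level of the 20 genes with the highest lowest-tumor ratio, in UMIs per 10000 UMIs of the set on a log scale, in C1q macrophages (red), other Csf1r-positive phagocytes (grey) and T cells (blue). Filled points are Csf1rfl/fl and open points Lyve1CreCsf1rfl/fl tumors, circles run 1 and squares run 2, and red points lie at least 2-fold to the right of grey points of the same tumor.

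The median log2 ratio of members to other Csf1r-positive phagocytes was 0.76 over 19 measured genes of resident perivascular macrophages, 0.67 over 20 lipid-associated genes and 0.58 over 20 lysosome genes, beside 0.01 over all 12047 genes. It was 0.47 over 6 Fc gamma receptor genes, 0.36 over 17 chemokines, 0.34 over 14 complement genes, 0.52 over 18 genes for hyaluronan and matrix receptors, 0.52 over 18 genes of alternative activation and suppression, 0.23 over 20 cell cycle genes without Mki67 and Top2a, 0.21 over 14 growth factors, 0.12 over 16 proteases, 0.10 over 15 efferocytosis genes, 0.08 over 20 transcription factors and 0.04 over 16 checkpoint genes. It lay below 0 for interferon-stimulated genes at -0.22 over 29 genes, inflammatory mediators at -0.17 over 16, immediate early genes at -0.15 over 18, MHC class II genes at -0.06 over 13, glycolysis and hypoxia genes at -0.06 over 22 and oxidative phosphorylation genes at -0.02 over 20.

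The resident signature was carried by some of its genes. Pf4 was at 4.27, 5.08, 3.96 and 3.002 per 10000 in members and Mrc1 at 1.19, 3.52, 1.11 and 2.22. Lyve1, the hyaluronan receptor that drives the Cre allele, was at or near 0, with 2, 0, 0 and 0 UMIs in members, and 3 UMIs in these sums would be 0.00888, 0.0155, 0.0392 and 0.0621 per 10000. Cd163, a scavenger receptor for hemoglobin, had 4, 5, 0 and 0 UMIs, and Timd4, a receptor for phosphatidylserine, 6, 4, 1 and 1. Lyve1 had 43, 20, 42 and 42 UMIs over all kept cells of the tumors, and members held 2 of them. At this depth Lyve1 transcript neither marked the members nor could be compared between genotypes.

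Within the set, levels of other genes moved with the C1q level of the cell. Cells were split at 40 and 80 C1q UMIs per 10000, giving 150, 116, 49 and 28 cells below 40, 171, 112, 70 and 38 cells between 40 and 80, and 190, 57, 37 and 15 cells at 80 or more. Ms4a7 stood at 5.93, 4.48, 2.81 and 5.04 per 10000 in the lowest class and at 20.4, 18.6, 9.44 and 12.4 in the highest. Cd72 went from 2.71, 2.56, 2.08 and 2.55 to 8.12, 7.17, 5.74 and 7.52, and Adgre1 from 0.810, 1.32, 0.731 and 1.605 to 2.10, 3.34, 1.73 and 4.57. All 3 were higher in the highest class than in the lowest in every tumor.

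S100a4 and Lyz2, chosen after their values were seen, went the other way. S100a4, a calcium-binding protein of migrating leukocytes, was at 13.2, 15.97, 24.6 and 14.6 per 10000 below 40 and at 5.17, 7.26, 9.07 and 3.22 at 80 or more. Lyz2 was at 28.7, 23.1, 34.3 and 28.7 and then at 15.2, 15.99, 12.1 and 11.1. Ly6c2, the surface marker of inflammatory monocytes, was at 13.8, 17.3, 12.97 and 13.8 and then at 6.94, 4.19, 13.1 and 4.297, so the Lyve1CreCsf1rfl/fl tumor of run 1 did not share the lower level. Csf1r had no common direction, at 1.67, 2.11, 1.001 and 1.27 below 40 and at 1.55, 2.25, 1.17 and 2.55 at 80 or more. Scrublet marked 30%, 19.8%, 26.5% and 10.7% of the lowest class and 10%, 5.26%, 10.8% and 6.67% of the highest, so doublet calls moved with the C1q level too, and their part was not tested.

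**Figure D3:**
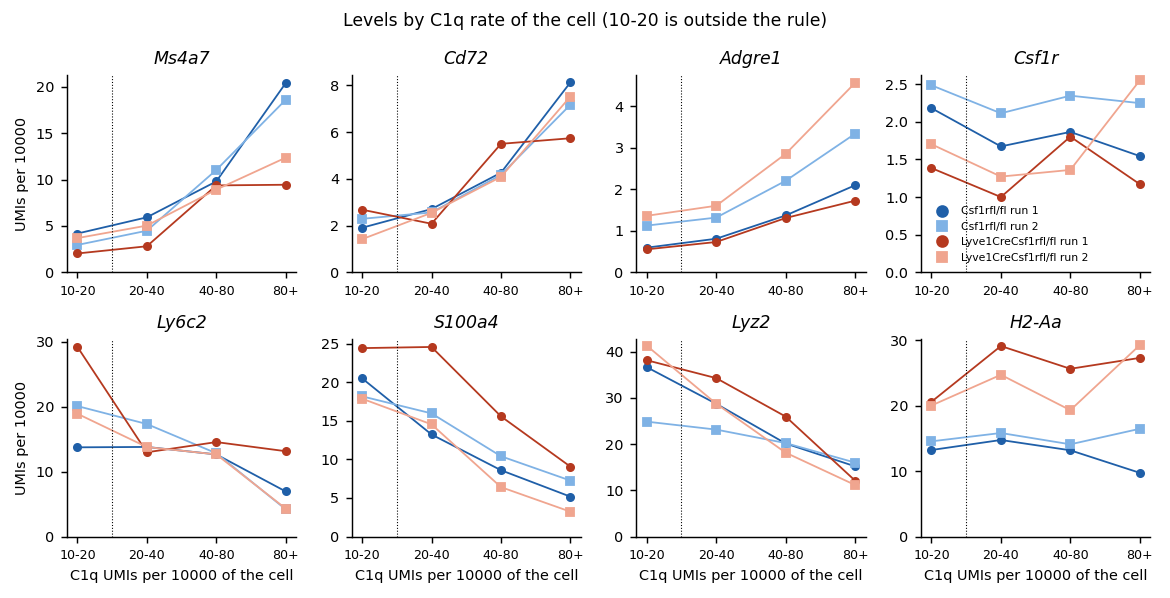
Level of 8 genes (UMIs per 10000) by the C1q level of the cell (UMIs per 10000 of the cell), with 1 line per tumor; cells left of the dotted line, at 10 to 20, do not meet the rule. Ms4a7, Cd72 and Adgre1 are higher and S100a4 and Lyz2 lower at 80 or more than at 20 to 40 in all 4 tumors, and H2-Aa lies above both Csf1rfl/fl tumors in both Lyve1CreCsf1rfl/fl tumors in each class.

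Member cells also differed from one another in genes that the rule did not use. To compare shares of cells, each cell was thinned to 2000 UMIs, which left 464, 270, 136 and 76 of the members and left out 47, 15, 20 and 5. Ly6c2 was then found in 57.8%, 56.3%, 72.1% and 65.8% of members (66.1%, 67.0%, 75.0% and 70.4% unthinned), and in 52.6%, 44.02%, 37.2% and 48.9% of T cells, some of which make it. H2-Aa, an MHC class II chain that presents antigen to CD4 T cells, was in 50%, 63.7%, 75.7% and 68.4% of members (57.7%, 73.3%, 76.3% and 75.3% unthinned) against 20.8%, 20.5%, 12.3% and 22.7% of T cells. Mrc1 was in 19.2%, 30.4%, 11.8% and 22.4% of members (31.5%, 46.0%, 23.7% and 35.8% unthinned) against 1.11 to 2.95% of T cells. Other Csf1r-positive phagocytes, thinned alike, had Ly6c2 in 83.1%, 79.9%, 77.8% and 80.1%, above members in every tumor. They had H2-Aa in 35.9%, 48.1%, 50.5% and 47.4% and Mrc1 in 4.81%, 8.32%, 3.35% and 2.96%.

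The share of cells with H2-Aa differed by Mrc1, as a description. H2-Aa was found in 33.7%, 46.3%, 56.3% and 35.3% of the thinned members with a Mrc1 UMI (89, 82, 16 and 17 cells) and in 53.9%, 71.3%, 78.3% and 78.0% of those without. The share was lower in cells with Mrc1 in each of the 4 tumors, although the Lyve1CreCsf1rfl/fl tumors rest on few cells. Cells with Ly6c2 went the other way, with H2-Aa in 57.8%, 68.4%, 78.6% and 72.0% of them against 39.3%, 57.6%, 68.4% and 61.5% of cells without Ly6c2. These are counts of cells, and no test over cells was made.

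Other genes were found in fewer members. Folr2 was in 3.88%, 3.33%, 0.735% and 2.63% of thinned members (8.41%, 11.2%, 1.28% and 6.17% unthinned), against 0.117 to 0.243% of T cells. Trem2, a lipid-sensing receptor, was in 8.19%, 5.93%, 4.41% and 2.63% (14.9%, 17.5%, 5.77% and 11.1% unthinned), against 0.291 to 1.19% of T cells. Arg1, the arginine-degrading enzyme, was in 1.94%, 3.33%, 1.47% and 5.26% (2.35%, 6.32%, 1.92% and 4.94% unthinned), against 0.175 to 0.911% of T cells. Cxcl9, an interferon-induced ligand for T cells, was in 9.48%, 21.1%, 8.82% and 17.1% (13.9%, 29.5%, 12.2% and 24.7% unthinned), higher in both tumors of run 2 than in both tumors of run 1. T cells, at 3.11%, 4.74%, 1.28% and 3.64%, had the same order of runs at lower shares. Other Csf1r-positive phagocytes, at 8.80%, 14.0%, 8.47% and 13.5%, had that order too and lay near members in run 1. For Folr2, Trem2 and Arg1 the Lyve1CreCsf1rfl/fl shares rest on 1 to 6 cells a tumor.

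The genotypes were then compared within the members, on UMI sums per tumor, with edgeR's quasi-likelihood test over 8037 genes with Benjamini-Hochberg adjustment. No gene passed (0 genes, 0%). At an unadjusted p under 0.05 there were 226 genes, 113 in each direction, and DESeq2's Wald test called 3 genes (Gm15056, Mmp12 and Rpl39l, all higher in Lyve1CreCsf1rfl/fl). Counted without a test, 2001 genes (24.9%) were higher and 2256 (28.1%) lower in Lyve1CreCsf1rfl/fl in both runs, and the median log2 fold change over all genes was -0.01.

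Each run held 1 tumor of either genotype. With run as a replicate block, edgeR called 41 genes higher (0.51%) and 27 lower (0.336%) in Lyve1CreCsf1rfl/fl. Of the 27, S100a8 and S100a9 were part of the rule and are not read as calls, which leaves 25. This fit has 1 residual degree of freedom and an unlimited prior, so that every gene takes the spread of all genes, and 5 of the 68 called genes, Ccl8, Ly6d, Gdf15, Stfa2l1 and Il23a, did not go the same way in both runs. Without the cells Scrublet marked, the blocked fit called 9 genes, all among the 68, namely Mmp12, Gm15056, Ifitm1, Fabp5, Ly6i and Rpl39l as higher and Ccl6, Ccl7 and Ccl12 as lower. Adjusted p-values below are those of edgeR, without the block and with it.

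The genes with the smallest p that were higher in both runs of Lyve1CreCsf1rfl/fl were Gm15056, Rpl39l, Mmp12, Mmp13 and Il7r, none past the unblocked test. Gm15056, a predicted protein-coding gene on chromosome 8 (20900606 to 20902627, GRCm38), had 38, 8, 56 and 54 UMIs, or 0.112, 0.0414, 0.731 and 1.12 per 10000, and the genotypes did not overlap (log2 fold change 3.42, SE 0.41, adjusted p = 0.065 by edgeR, higher in both runs). Rpl39l, a relative of the ribosomal protein gene Rpl39 that could share reads with it, had 0, 0, 14 and 4 UMIs, at least 25.5-fold higher in Lyve1CreCsf1rfl/fl when 3 UMIs are set over the Csf1rfl/fl group. Mmp12, macrophage elastase, was at 1.43, 1.86, 3.32 and 5.38 per 10000 (log2 fold change 1.40, SE 0.26, adjusted p = 0.79 unblocked and 1.4e-16 blocked). Mmp13, a collagenase, was at 0.867, 0.787, 1.51 and 2.19 (log2 fold change 1.14, SE 0.24, adjusted p = 0.9999 unblocked and 7.0e-08 blocked), and lies on chromosome 9 within 97.0 kb of Mmp12. Il7r, the interleukin-7 receptor chain, was at 0.867, 0.611, 1.49 and 2.07.

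In the lower direction the smallest p belonged to genes at few UMIs. Cox6a2, a muscle form of a cytochrome oxidase subunit, had 79, 29, 1 and 1 UMIs, or 7.88% of the Csf1rfl/fl rate in the Lyve1CreCsf1rfl/fl group (95% counting interval 0.942 to 29.1%). Xcl1, a lymphocyte chemokine, had 34, 57, 1 and 0 UMIs, or 4.67% of that rate (0.117 to 26.7%), Klk1 had 35, 19, 1 and 0, and Psd3 had 41, 24, 1 and 1. Stmn1, a microtubule regulator of dividing cells, had 171, 110, 13 and 11 UMIs, or 0.506, 0.569, 0.170 and 0.228 per 10000 (log2 fold change -1.45, SE 0.31, adjusted p = 0.9999 unblocked and 0.00067 blocked). None of these 5 genes passed the unblocked test, although the genotypes did not overlap for any of them. With the cells marked by Scrublet left out, the blocked fit called none of the 5 either. The part of other cell types in these low counts was not tested. Of all 8037 genes tested, both Lyve1CreCsf1rfl/fl tumors lay above both Csf1rfl/fl tumors in UMIs per 10000 for 13% and below them for 14.9%.

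Of 11 tested MHC class II genes, 8 were higher and 0 lower in Lyve1CreCsf1rfl/fl in both runs, against 24.9% and 28.1% of all genes, with a median log2 fold change of 0.54. H2-Aa was at 12.4, 15.4, 27.2 and 22.9 per 10000, H2-Ab1 at 14.7, 15.9, 31.9 and 24.7, H2-Eb1 at 14.2, 13.4, 29.0 and 21.4, and Cd74, the invariant chain that escorts these proteins, at 30.3, 40.8, 63.6 and 56.1. The genotypes did not overlap for any of the 4, as for 13% of all genes in that direction. None of the list passed the unblocked test, and these 4 passed with run as a block, where 0.51% of all genes were called higher. Dendritic-cell markers, which mark another cell type rich in MHC class II, summed to 0.657, 0.580, 0.836 and 1.68 per 10000 in members, highest in both Lyve1CreCsf1rfl/fl tumors. Most of the last sum came from Fscn1, at 0.231, 0.0673, 0.235 and 1.22 and called higher with the block (edgeR, adjusted p = 2.8e-08). For the markers Flt3 and Ccr7 the genotypes overlapped. The part of dendritic cells was not tested. H2-Ab1 had a log2 fold change of 0.90 (SE 0.28, adjusted p = 0.9999 unblocked and 1.6e-10 blocked). With cells marked by Scrublet left out, H2-Aa stood at 11.4, 15.4, 27.2 and 19.9 per 10000, still without overlap, but no MHC class II gene passed the blocked fit. Ctss, a protease that trims the invariant chain, was at 20.1, 22.04, 21.6 and 24.5.

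Ccl7, Ccl12 and Ccl2 are chemokines that act on Ccr2. Ccl7 was at 12.4, 9.17, 5.56 and 6.07 per 10000, Ccl12 at 16.2, 14.1, 10.2 and 9.67 and Ccl2 at 15.7, 10.96, 8.60 and 9.86. The genotypes did not overlap for any of the 3, as for 14.9% of all genes in that direction. These 3 chemokine genes lie with Ccl8 within 81.2 kb of chromosome 11. Ccl7 had a log2 fold change of -0.90 (SE 0.27, adjusted p = 0.9999 unblocked and 1.6e-08 blocked), and -0.61 was found for Ccl12 and -0.54 for Ccl2. Ccl8 was at 3.04, 2.53, 0.261 and 3.31, low in the Lyve1CreCsf1rfl/fl tumor of run 1 alone, without which its log2 fold change of -0.76 turned to 0.17, and Ccl6 at 2.07, 4.86, 1.36 and 2.30. Of 16 tested chemokines 5 were higher and 5 lower in both runs, against 24.9% and 28.1% of all genes, and 0 passed unblocked. With the block 1 passed as higher and 5 as lower, where 0.51% and 0.336% of all genes were called. Among those 5 was Ccl8, which did not go the same way in both runs. The one higher was Cxcl9, at 1.73, 3.74, 3.17 and 5.84.

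Folr2, the folate receptor of resident macrophages, had 72, 68, 2 and 6 UMIs, or 0.213, 0.352, 0.0261 and 0.124 per 10000, and both Lyve1CreCsf1rfl/fl tumors were below both Csf1rfl/fl tumors (log2 fold change -2.06, SE 0.56, adjusted p = 0.9999 unblocked and 0.0030 blocked). Of 13 tested genes of the resident list 1 was higher and 8 lower in both runs, against 24.9% and 28.1% of all genes, with a median log2 fold change of -0.40, and Folr2 alone passed with the block, where 0.336% of all genes were called lower. Maf and Mrc1 were among the 8, Mrc1 at 1.19, 3.52, 1.11 and 2.22, with overlapping genotypes. Hmox1, which degrades heme, was at 5.61, 6.38, 2.68 and 4.10 (log2 fold change -0.84, SE 0.25, adjusted p = 0.9999 unblocked and 8.7e-07 blocked).

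C1qa, C1qb and C1qc, which chose the cells, had log2 fold changes of -0.16, -0.05 and -0.25, given with no test. Ms4a7 had -0.59 (SE 0.25, adjusted p = 0.9999 unblocked and 0.0014 blocked), Apoe -0.43 (SE 0.27) and Adgre1 0.07 (SE 0.32). For Apoe and Adgre1 the genotypes overlapped, the Lyve1CreCsf1rfl/fl tumor of run 2 having the highest Adgre1 level of all.

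Lipid genes were mixed. Fabp5, a fatty-acid binding protein, was at 20.2, 16.2, 33.4 and 29.7 per 10000 (log2 fold change 0.79, SE 0.28, adjusted p = 0.9999 unblocked and 4.6e-09 blocked), and the genotypes did not overlap. Fabp4, a related protein, was called higher with the block too, at 0.539, 0.160, 0.810 and 1.097. Lpl, which releases fatty acids from lipoproteins, was called lower with the block, at 2.25, 3.57, 1.06 and 2.61 with overlapping genotypes. Of 19 tested lipid-associated genes 8 were higher and 3 lower in both runs, against 24.9% and 28.1% of all genes, with a median log2 fold change of 0.12. With the block 0.51% of all genes were called higher and 0.336% lower.

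Of 21 tested glycolysis and hypoxia genes 14 were higher and 0 lower in both runs, against 24.9% and 28.1% of all genes, with a median log2 fold change of 0.26, and none passed either fit. Mif, a cytokine, was at 5.70, 5.07, 7.34 and 6.999 per 10000, and Aldoa, a glycolytic enzyme, at 5.21, 6.17, 6.93 and 7.45. Gapdh, another glycolytic enzyme, was at 13.3, 10.8, 13.5 and 12.2, and Pkm, pyruvate kinase, at 5.40, 6.94, 6.14 and 6.48 with overlapping genotypes. In other Csf1r-positive phagocytes the summed list was at 56.7, 53.8, 60.6 and 57.0 per 10000, and in members at 50.2, 53.5, 58.5 and 61.4.

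**Figure D4:**
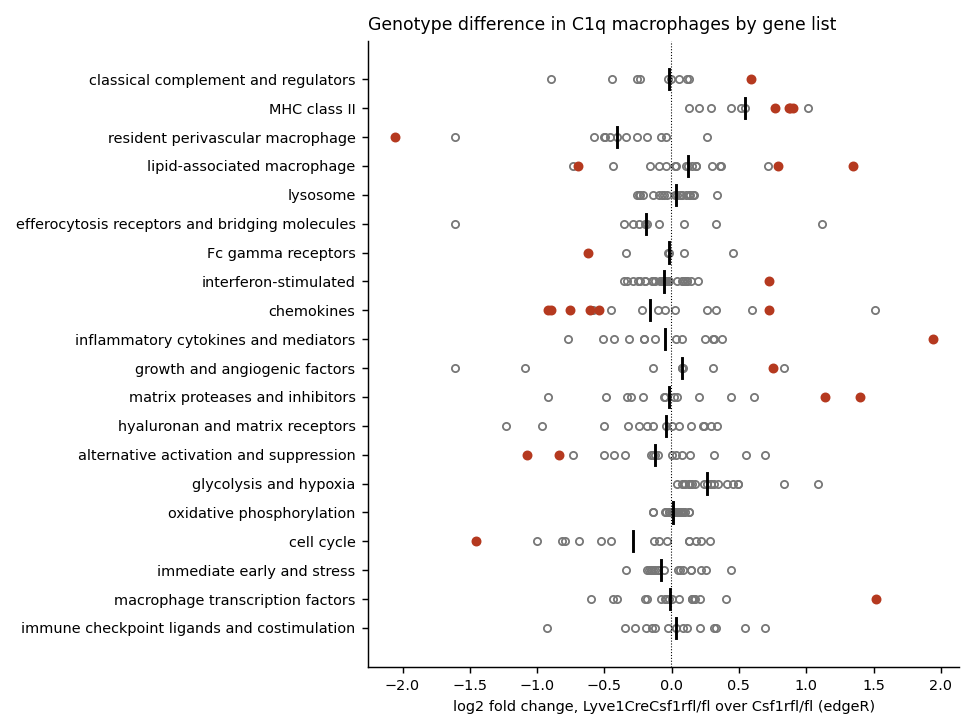
Log2 fold change of Lyve1CreCsf1rfl/fl over Csf1rfl/fl in C1q macrophages for the tested genes of each list (1 point a gene, edgeR without a block), with the list's median as a bar and the median of all genes as a dotted line. Red points passed an adjusted p of 0.05 with run as a replicate block, and no gene passed without it; cell cycle points include Mki67 and Top2a of the rule. The median is 0.54 for MHC class II genes, 0.26 for glycolysis and hypoxia genes and -0.40 for resident macrophage genes.

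The other lists had medians between -0.29 and 0.08. Of 20 tested lysosome genes 5 were higher and 5 lower in both runs (median 0.03, 0 called with the block). For this and the next lists, all genes stood at 24.9% higher and 28.1% lower in both runs. The block called 0.51% of all genes higher and 0.336% lower. Ctsb, a lysosomal protease, was at 24.8, 27.8, 21.2 and 30.6 per 10000, Psap at 20.3, 25.9, 22.04 and 28.5, and Grn, progranulin, at 11.3, 13.7, 10.03 and 13.5. Of 29 interferon-stimulated genes 6 were higher and 5 lower (median -0.05), with Isg15 at 15.8, 20.1, 17.0 and 17.7, and Cxcl9 alone was called with the block. Of 20 oxidative phosphorylation genes 5 were higher and 4 lower (median 0.01), of 18 immediate early genes 4 and 3 (median -0.08), and of 18 macrophage transcription factors 4 and 4 (median -0.01), where Id3 was called higher with the block.

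Of 10 tested complement genes 1 was higher and 3 lower in both runs (median -0.02), and C3, the central component, was called higher with the block. All genes stood at 24.9% higher and 28.1% lower in both runs, and at 0.51% and 0.336% called with the block. C3ar1 was at 4.85, 4.80, 4.52 and 5.11 per 10000 and Itgam, a chain of complement receptor 3, at 4.10, 4.76, 3.15 and 4.29. Of 6 Fc gamma receptor genes 2 were higher and 1 lower (median -0.02). That 1 was Fcgr4, at 3.23, 2.48, 1.65 and 2.13 and called lower with the block, while Fcer1g, the shared signalling chain, was at 66.3, 43.7, 62.3 and 46.4 and followed the run. Of 10 efferocytosis genes 2 were higher and 3 lower (median -0.19), with Lrp1 at 1.44, 2.26, 1.62 and 2.32 and Axl at 0.903, 1.30, 1.46 and 1.24.

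Of 14 tested proteases and inhibitors 4 were higher and 4 lower (median -0.02), and Mmp12 and Mmp13 were the ones called, both higher, with the block. Beside this and the next lists, all genes stood at 24.9% higher and 28.1% lower in both runs. The block called 0.51% of all genes higher and 0.336% lower. Of 14 inflammatory mediators 4 were higher and 4 lower (median -0.05), with Il1b at 11.6, 12.3, 19.4 and 9.40. Nos2, inducible nitric oxide synthase, was called higher with the block at 18, 16, 7 and 23 UMIs, or 0.0533, 0.0828, 0.0914 and 0.476 per 10000. Its log2 difference was 0.69 in run 1 and 2.38 in run 2. Of 9 growth factors 4 were higher and 2 lower (median 0.08), Thbs1 being called higher with the block. Thbs1 was at 0.586, 1.28, 0.770 and 2.44 per 10000 with overlapping genotypes, and its log2 fold change of 0.76 turned to -0.15 without the Lyve1CreCsf1rfl/fl tumor of run 2. Of 15 genes for hyaluronan and matrix receptors 4 were higher and 5 lower (median -0.05), with none called and Msr1, a scavenger receptor, at 3.25, 4.55, 3.96 and 5.61. Of 17 genes of alternative activation and suppression 4 were higher and 6 lower (median -0.13), against 24.9% and 28.1% of all genes. Hmox1 and Arg1 were called lower with the block, where 0.336% of all genes were called lower. For Arg1 the log2 fold change of -1.08 turned to 0.46 at a C1q threshold of 40 per 10000, and to 0.54 there with the block. Arg1 was at 0.364, 1.004, 0.144 and 0.538 per 10000, where the Lyve1CreCsf1rfl/fl tumor of run 2 exceeded the Csf1rfl/fl tumor of run 1. Of 15 checkpoint and costimulation genes 5 were higher and 2 lower (median 0.03, none called), with Cd274, which encodes PD-L1, at 1.85, 2.08, 2.08 and 2.84.

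Of 16 tested cell cycle genes 3 were higher and 9 lower (median -0.29), but Mki67 and Top2a, which the rule used, were among the 9. Without them 3 of 14 were higher and 7 lower (median -0.11), against 24.9% and 28.1% of all genes. Stmn1 was called lower with the block, where 0.336% of all genes were called lower. The C1q macrophages taken out numbered 24, 18, 4 and 0, or 0.279%, 0.231%, 0.0552% and 0% of kept cells.

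Neutrophil genes also differed between tumors. S100a8, part of the rule and so a description, had 4590, 1149, 527 and 86 UMIs. Retnlg had 448, 48, 28 and 6 and was called lower with the block, but its log2 fold change of -1.63 turned to 0.16 without the Csf1rfl/fl tumor of run 1. Neutrophil markers in T cells of the same tumors were highest in the Csf1rfl/fl tumor of run 1 too. With the cells marked by Scrublet left out, S100a8 stood at 2.91, 2.97, 2.81 and 1.096 per 10000 and Retnlg was not among the 9 called.

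A separate fit asked whether the genotype difference in C1q macrophages differed from that in other Csf1r-positive phagocytes of the same tumors, with tumor as a term. Of 10276 genes, edgeR called 10 (0.0973%) as higher and 3 (0.0292%) as lower in C1q macrophages relative to the others at an adjusted p of 0.05. The 10 were Cxcl9, Mmp13, Cd74, Ass1, Fabp4, H2-Ab1, H2-Aa, Adam23, S100a6 and S100a11, and the 3 were Gzmc, Retnlg and H2-M2. Gzmc did not keep its direction, since its difference of -3.80 on the log2 scale turned to 2.30 (edgeR, adjusted p = 0.806) with cells marked by Scrublet left out. No gene was called without the Lyve1CreCsf1rfl/fl tumor of run 2, where 811 genes had an unadjusted p under 0.05. With cells marked by Scrublet left out 13 genes were called, of which 6 were the same.

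Cxcl9 was at 1.73, 3.74, 3.17 and 5.84 per 10000 in members and at 1.76, 4.41, 1.70 and 2.63 in the others. Only the summed level of members was thus higher in Lyve1CreCsf1rfl/fl within each run (difference of log2 fold changes 1.19, SE 0.14, adjusted p = 0.0017 by edgeR). The share of thinned members with a Cxcl9 UMI was lower there in each run, at 9.48%, 21.1%, 8.82% and 17.1%. The last 2 shares rest on 12 and 13 cells. Mmp13 was at 0.227, 0.209, 0.133 and 0.122 in the others, lower in both Lyve1CreCsf1rfl/fl tumors, and higher there in members (difference 1.92, SE 0.24, adjusted p = 0.0020). Both genes were also called without the cells marked by Scrublet. Ass1, which makes argininosuccinate in arginine synthesis, was at 1.62, 1.62, 2.91 and 2.80 in members and at 2.81, 2.66, 2.69 and 2.58 in the others (difference 0.89, SE 0.13, adjusted p = 0.0087).

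Of the MHC class II list, Cd74, H2-Ab1 and H2-Aa passed the test of the difference between members and the others. That test called 0.0973% of all genes in this direction. H2-Aa was at 12.2, 18.2, 20.6 and 17.0 per 10000 in other Csf1r-positive phagocytes, where the genotypes overlapped (difference 0.55, SE 0.09, adjusted p = 0.026). Among cells just under the rule, at 10 to 20 C1q UMIs per 10000, H2-Aa was at 13.2, 14.6, 20.6 and 20.04 and the genotypes did not overlap. Cd74 was at 32.2, 46.3, 49.6 and 40.6 in the others (difference 0.57, SE 0.07, adjusted p = 0.0021). The summed list was at 106, 121, 193 and 164 per 10000 in members and at 101, 133, 147 and 121 in the others. The 3 genes lost the call without the cells marked by Scrublet, at differences of 0.43, 0.52 and 0.41.

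**Figure D5:**
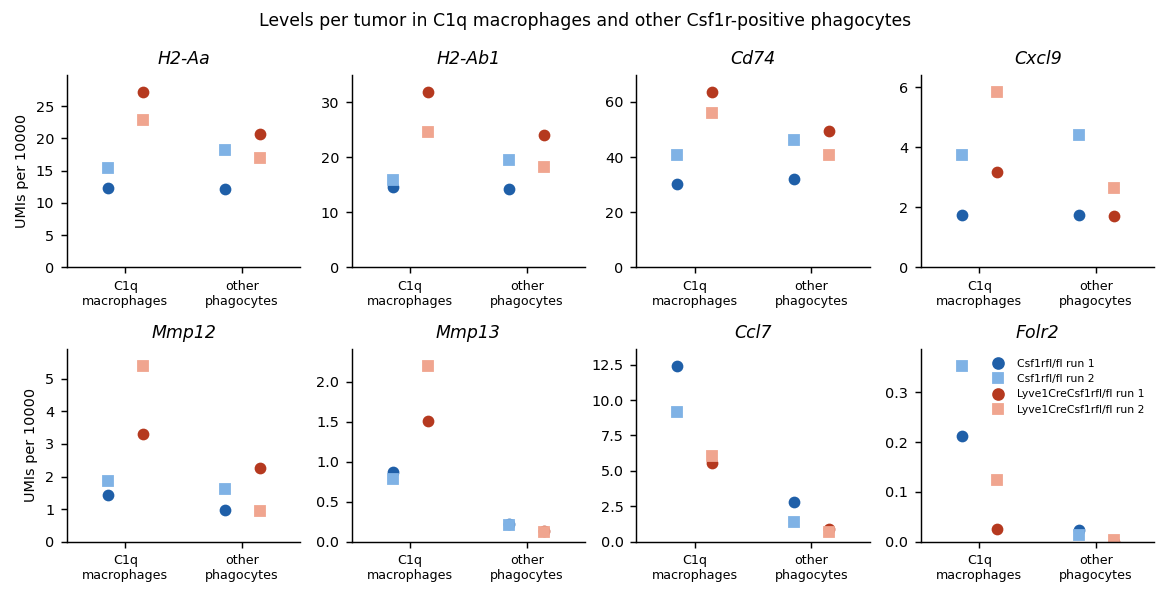
Level of 8 genes (UMIs per 10000) per tumor in C1q macrophages and in other Csf1r-positive phagocytes; circles are run 1 and squares run 2, blue Csf1rfl/fl and red Lyve1CreCsf1rfl/fl. In C1q macrophages the genotypes do not overlap for H2-Aa, H2-Ab1, Cd74, Mmp12, Mmp13, Ccl7 and Folr2, and overlap for Cxcl9. Of all genes tested there, both Lyve1CreCsf1rfl/fl tumors lie above both Csf1rfl/fl tumors for 13% and below them for 14.9%. No gene passed the genotype fit without a block.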

How the data were processed

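CD45+ cells of 4 EO771 tumors were profiled by 3′ single-cell RNA-seq in 2 runs. The authors deposited raw UMI counts per gene and per hashtag for 53361 barcodes and 32285 genes, made with Cell Ranger 6.0.1 on mm10. The authors also deposited a table of SCTransform-corrected values, treated here as a score, made in Seurat from hashtag singlets with few mitochondrial reads after 4 clusters specific to 1 tumor were removed. It was used only to take the 28429 kept cells. A further deposited text table pairs tumors with hashtags.

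Members were found by the rule given in the results, on raw counts, and the tumor of a cell by its higher hashtag. Counts were summed per tumor and tested with edgeR 4.0.16 (TMM, filterByExpr, quasi-likelihood, Benjamini-Hochberg 0.05) in R 4.3.3, without a block as the main fit. The members and gene lists were chosen with earlier results of these data known. Named genes were 9 fixed genes, the 5 with the smallest p in each direction where fewer than 5 passed, of each list those past a threshold and the 4 with the highest mean, and the 20 with the highest lowest-tumor ratio to other phagocytes; genes of monocytes and neutrophils, and those shown by C1q level or as shares of cells, were chosen besides. Of all list genes only Mx1 was missing. Each run is a shared batch, so run numbers pair the tumors: the run differences of the 2 genotypes correlated at r = 0.251 over 8037 genes and 0.585 over 1457 genes with a mean CPM over 100. DESeq2 1.42.0 was an alternative. Doublets were scored per run with Scrublet in scanpy 1.11.5 at an assumed rate of 0.2 and kept, with a repeat that left them out. Gene positions are from the GENCODE M21 annotation of GRCm38 and the upstream window from a RefSeq table. The fits were tested on simulated data without a run effect, where only genes with a log2 mean CPM above 5 were changed. Of these the genotype fit recovered 40% at a change of 1 and 99% at a change of 2 on the log2 scale. The fit of differences recovered 76.5% and 99.5%. False calls were 7 and 10 in the first fit and 4 and 5 in the second. Recovery of genes at lower counts was not tested. Each simulated gene took the spread of the trend at its level, without further differences in spread between genes, so these rates need not hold in the data. There Inhba and Fscn1, each at a log2 fold change of 2.04, did not pass the genotype fit without a block (edgeR, adjusted p = 0.9999). Labels name separate tumors, with 2 per genotype.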

Additional observations from a re-analysis of the deposited data

Results flagged for a closer look

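For 13 genes the genotype difference in C1q macrophages differed from that in other Csf1r-positive phagocytes by the test of the difference itself (edgeR, adjusted over 10276 genes). The adjusted p was 0.0017 for Cxcl9, 0.0020 for Mmp13, 0.0021 for Cd74, 0.0021 for Gzmc and 0.0087 for Ass1. With cells marked by Scrublet left out, the difference for Gzmc turned from -3.80 to 2.30 on the log2 scale. The adjusted p was 0.026 for Fabp4, H2-Ab1, H2-Aa and Retnlg, 0.026 for Adam23, 0.032 for S100a6 and S100a11, and 0.047 for H2-M2. For Cxcl9 the summed level of members was higher in Lyve1CreCsf1rfl/fl in each run, but the share of thinned members with a UMI was lower. Adam23 had 0, 0, 8 and 2 UMIs in members, H2-M2 had 51, 22, 2 and 0, and Gzmc, a granzyme of cytotoxic lymphocytes, had 120, 24, 3 and 1. S100a6 was at 33.3, 31.6, 48.0 and 33.2 per 10000 in members and at 67.4, 60.6, 71.4 and 53.2 in the others, and S100a11 at 9.25, 7.94, 16.6 and 10.3 against 19.5, 18.4, 25.3 and 17.3. Fabp4 was at 0.581, 0.236, 0.350 and 0.155 in the others.

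Among barcodes that the authors left out, 459 also met the count rule, with 149, 152, 90 and 68 by the higher hashtag. They had a median of 6961 UMIs, and 425 held 5 or more C1q UMIs. Kept members numbered 511, 285, 156 and 81, so more barcodes were left out for each kept member in both Lyve1CreCsf1rfl/fl tumors. The left-out barcodes entered no comparison, and their part in the share of C1q macrophages was not tested.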

How the results depend on the processing

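The lower share of C1q macrophages in Lyve1CreCsf1rfl/fl kept its direction in all 13 alternatives, at log2 ratios of -1.62 to -0.93 with 1 tumor left out and -1.38 to -0.52 otherwise. None of these alternatives added the barcodes that the authors left out. With run as a replicate block, the pairing gave -1.29 for the share and 68 called genes against 0 without it, 9 with the block and no Scrublet doublets, and 32 with the block and a C1q threshold of 40 per 10000 (29 shared with the 68); the last 2 alternatives were chosen after seeing the data. Without the block, 1 gene, Gm15056, was called at a C1q threshold of 40, with 5 or more C1q UMIs, without Scrublet doublets, with cells in the cell cycle included, or with DESeq2 size factors. Library totals alone called 3, the DESeq2 Wald test 3 and no filter on low counts 31, and 2 to 26 were called with 1 tumor left out (26 without the Csf1rfl/fl tumor of run 1, 17 without that of run 2, and 8 and 2 without the Lyve1CreCsf1rfl/fl tumors), where the lone tumor is assumed to vary like the others. The 13 differences between phagocyte sets became 95 without a filter and 0 to 39 with 1 tumor left out, 0 without the Lyve1CreCsf1rfl/fl tumor of run 2. The cause was not tested.

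Arg1 turned to 0.46 at a C1q threshold of 40 and to 0.54 with the block besides, and the difference for Gzmc to 2.30 without doublets. With 1 tumor left out, log2 fold changes ran from -0.36 to 0.087 for C1qa, -0.27 to 0.23 for C1qb, -0.49 to 0.062 for C1qc, -0.48 to 0.50 for Adgre1, -3.33 to 0.17 for Ccl8, -0.15 to 1.36 for Thbs1, -2.80 to 0.16 for Retnlg and -0.040 to 0.65 for S100a6. Of 717 values for 44 genes, 596 kept direction and side of the threshold, 109 passed it and 12 turned. These were the fixed genes, those with the smallest p, list genes called with the block and genes called for a difference between phagocyte sets. The blocked fit is itself among the alternatives, so part of the 109 was set by this choice. No gene passed the main fit, so keeping the side of the threshold meant not being called. Of 91 values for the 13 differences, 54 kept both, 36 no longer passed and 1 turned.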
